A study of Homo sapiens with 2 samples.

Results

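The receptors that natural killer (NK) cells and cytotoxic T cells carry on their surface were examined in a myeloid line, KG1. The set holds 8 genes: KLRB1, KLRD1, CRTAM, SLAMF7, HAVCR2, NCAM1, CD226 and CD244. It was chosen by gene symbol, with earlier results of these data known. Every probe set that the platform annotation assigns to 1 of these symbols was taken, which gave 22 of the 41091 named probe sets and 8 of the 19775 genes on the array. KG1 is an established human line from an acute myeloid leukaemia that resembles immature blood progenitors. Cells of both groups were electroporated with 1.98 µg of siRNA, which was directed against T-bet in the group siRNA-Tbet and was a control siRNA in the group siRNAc. Both groups then rested for 5 h and received interleukin-18 at 10 ng/ml for 12 h, so neither group is unstimulated. Each group holds 1 array. No value below has a replicate error or a test, and the number of arrays limits the precision.

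Cytotoxic lymphocytes decide whether to attack another cell by summing signals from activating and inhibitory surface receptors. KLRB1 (CD161) and KLRD1 (CD94) are C-type lectin-like proteins, CD244 (2B4) and SLAMF7 (CRACC) belong to the SLAM family, and CD226 (DNAM-1) and CRTAM bind nectin and nectin-like adhesion molecules. HAVCR2 (TIM-3) is an inhibitory receptor that myeloid cells and leukaemic progenitors also carry, and NCAM1 (CD56) is the adhesion molecule by which human NK cells are recognised. T-bet, encoded by TBX21, is a T-box transcription factor of NK cells and type 1 T cells. The comparison asks how the transcripts of these receptors differ when T-bet is targeted in IL-18-stimulated myeloid cells.

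The promoter table from RefSeq held 3 of the 8 genes, with 4 transcription starts, and these are shown because T-bet binds DNA at T-box sequences. Each line gives the 250 bases before a start, 5′ to 3′ on the gene's own strand, with the build GRCh38.p14. Capitals mark the ETS core AGGAAG, a motif bound by a family of factors common in lymphoid and myeloid cells.
KLRB1, chr12:9607917-9608166, minus strand: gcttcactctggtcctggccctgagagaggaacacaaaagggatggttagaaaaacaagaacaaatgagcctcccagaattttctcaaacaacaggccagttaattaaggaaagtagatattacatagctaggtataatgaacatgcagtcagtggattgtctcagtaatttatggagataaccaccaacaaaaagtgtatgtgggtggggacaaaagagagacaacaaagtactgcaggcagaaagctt
CD244, chr1:160862888-160863137, minus strand: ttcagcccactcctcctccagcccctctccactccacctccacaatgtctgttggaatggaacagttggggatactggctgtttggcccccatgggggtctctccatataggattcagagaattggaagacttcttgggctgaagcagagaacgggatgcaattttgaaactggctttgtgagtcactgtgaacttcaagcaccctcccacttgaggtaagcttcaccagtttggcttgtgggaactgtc
CD226, chr18:69956800-69957049, minus strand: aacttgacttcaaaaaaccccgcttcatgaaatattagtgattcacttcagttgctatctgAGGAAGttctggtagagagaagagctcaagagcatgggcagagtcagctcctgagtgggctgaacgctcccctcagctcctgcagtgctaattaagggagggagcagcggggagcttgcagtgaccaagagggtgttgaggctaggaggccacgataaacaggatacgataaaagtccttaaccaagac
CD226, chr18:69947874-69948123, minus strand: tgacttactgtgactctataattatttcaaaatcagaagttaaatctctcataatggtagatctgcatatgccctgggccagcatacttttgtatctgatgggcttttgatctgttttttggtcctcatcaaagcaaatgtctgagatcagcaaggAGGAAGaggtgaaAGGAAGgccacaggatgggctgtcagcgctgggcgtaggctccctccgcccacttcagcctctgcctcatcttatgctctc

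Both strands of these windows were searched for 4 motifs. The T-box core GTGTGA was found in none of the 4 windows, and it occurs in 9.9% of all 35116 windows of this length in the table. The longer T-box site AGGTGTGA, which contains this core, was also in none of them and occurs in 0.786% of all windows. The RUNX site TGTGGT was in none of them and occurs in 11% of all. The ETS core occurs in 28.7% of all windows and was found in both windows of CD226, 189 bases before the first start and 94 and 81 bases before the other. A match describes letters only, and a missing match says only that these letters are not in this window.

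Of the 8 receptor genes, 7 had a lower signal with siRNA-Tbet and KLRB1 had a nearly equal one. Among all 12164 measured genes, 53.7% were lower and 46.3% higher by any amount. The median log2 ratio of the receptor genes (siRNA-Tbet over siRNAc) was -0.58, against -0.02 for all measured genes. For these ratios, signals under an array's median over its non-control probe sets (144.2 with siRNA-Tbet and 146.4 with siRNAc) were raised to that median. A fold against a raised value is called floored below, and is no bound where the brighter signal may itself be background. The probe set that stands for a gene is the one with the highest mean log2 signal. Probe sets that can cross-hybridise (suffix _x_at) were avoided where another existed. A gene counted as measured when the probe set that stands for it was above the median on at least 1 array. CRTAM had a floored difference past 2-fold, as had 0.321% of the measured genes in that direction. CRTAM, SLAMF7, HAVCR2 and NCAM1 were at least 1.5-fold lower, 4 of 8, against 2.96% of the measured genes. None of the 8 was 1.5-fold higher, against 1.96%. CRTAM and KLRD1 passed the filter through the siRNAc array alone, where they are brighter. Without them, in a restriction added after seeing the data to genes above the median on both arrays, 5 of 6 receptor genes were lower, against 53.5% of such genes. The median log2 ratio of these 6 was -0.50, against -0.02 for all such genes. SLAMF7, HAVCR2 and NCAM1 were then at least 1.5-fold lower, 3 of 6 against 2.32%, and none was 2-fold lower, against 0.164%. All 8 values come from the same pair of samples and arrays and are not replicates of each other.

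**Figure D1:**
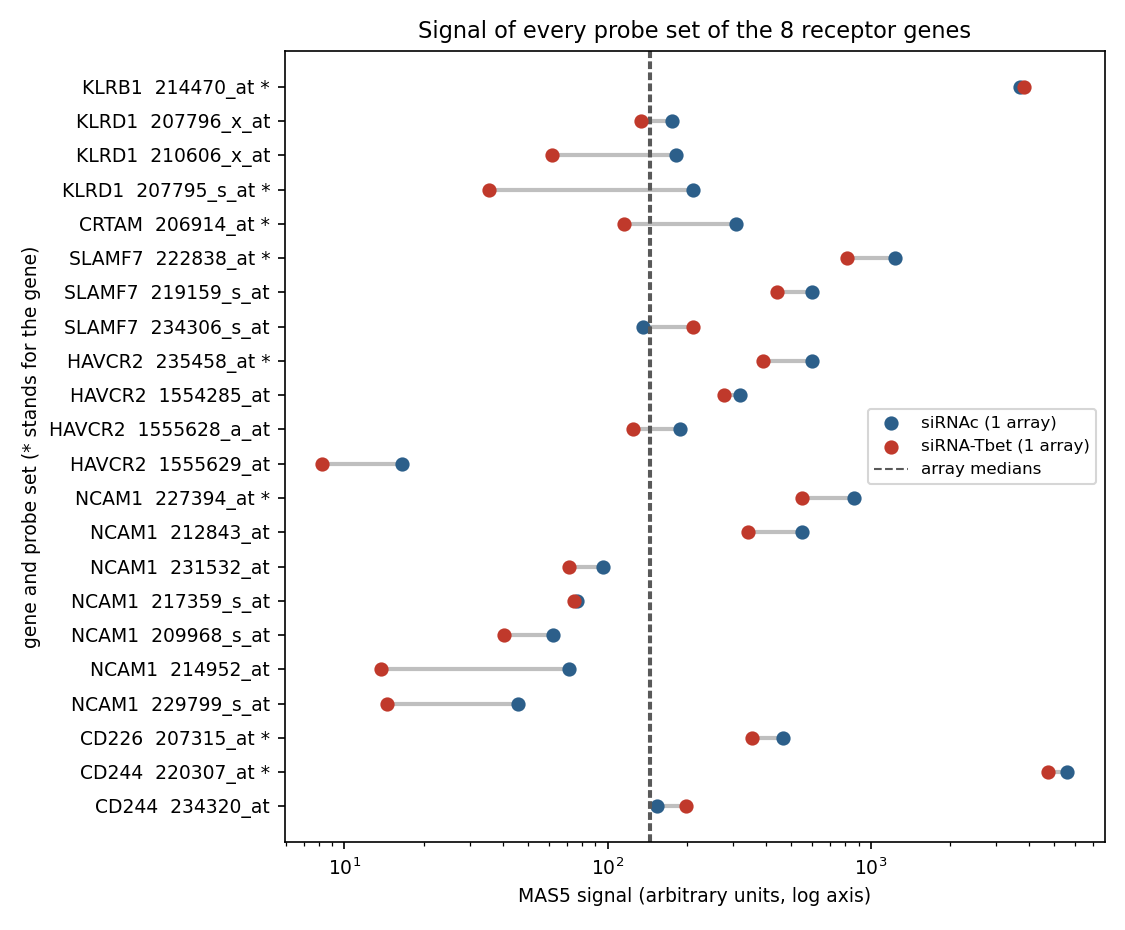
MAS5 signal (arbitrary units, log axis) of the 22 probe sets of the 8 receptor genes on the siRNAc array (blue) and the siRNA-Tbet array (red), 1 array each, with dashed lines at the array medians. The red point lies to the left of the blue one at 19 probe sets, and the 3 exceptions belong to KLRB1, SLAMF7 and CD244.

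Across single probe sets, with no value raised, 19 of the 22 were lower and 3 were higher with siRNA-Tbet, where 51% of all named probe sets were lower. Of the 22, 10 lay above the median on both arrays, and 8 of these were lower, against 51.6% of all probe sets that lay above it on both. Another 5 lay above the median with siRNAc only and 1 with siRNA-Tbet only. Over all named probe sets that cleared the median on 1 array only, siRNAc was that array in 49.8%. The remaining 6, all of NCAM1 or HAVCR2, lay under the median on both arrays. They are among the 19, but lie in a range where a signal is close to background, so their direction is not read as a difference. Probe sets of 1 gene read the same transcripts and share their source.

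The absolute signals were set against background. Probe sets differ in affinity, so their signals do not rank the genes by expression. As a gauge, 22 genes restricted to other tissues (such as liver, pancreas, heart and lung) were read on the same arrays, out of 25 listed. Of their 43 probe sets, 37 were under the median on both arrays and 2 (4.65%) were above it on both. The receptor genes had 45.5% of their probe sets above the median on both arrays, and all named probe sets 51.3%. The 4 measured genes of that list had log2 ratios of -0.30 (ACTN2), -0.10 (SFTPB), 0.13 (PDE6A) and 0.18 (SFTPC). The highest signals in the other-tissue list were 678 with siRNA-Tbet and 522 with siRNAc, at a probe set of SFTPB, a lung surfactant gene, that can cross-hybridise. Signals up to these values were thus also read from genes of other tissues. By that gauge KLRB1, CD244 and the brightest probe set of SLAMF7 were above the whole other-tissue list on both arrays. NCAM1 and HAVCR2 were above its range with siRNAc and within it with siRNA-Tbet. CD226, CRTAM and KLRD1 were within its range on both arrays.

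**Figure D2:**
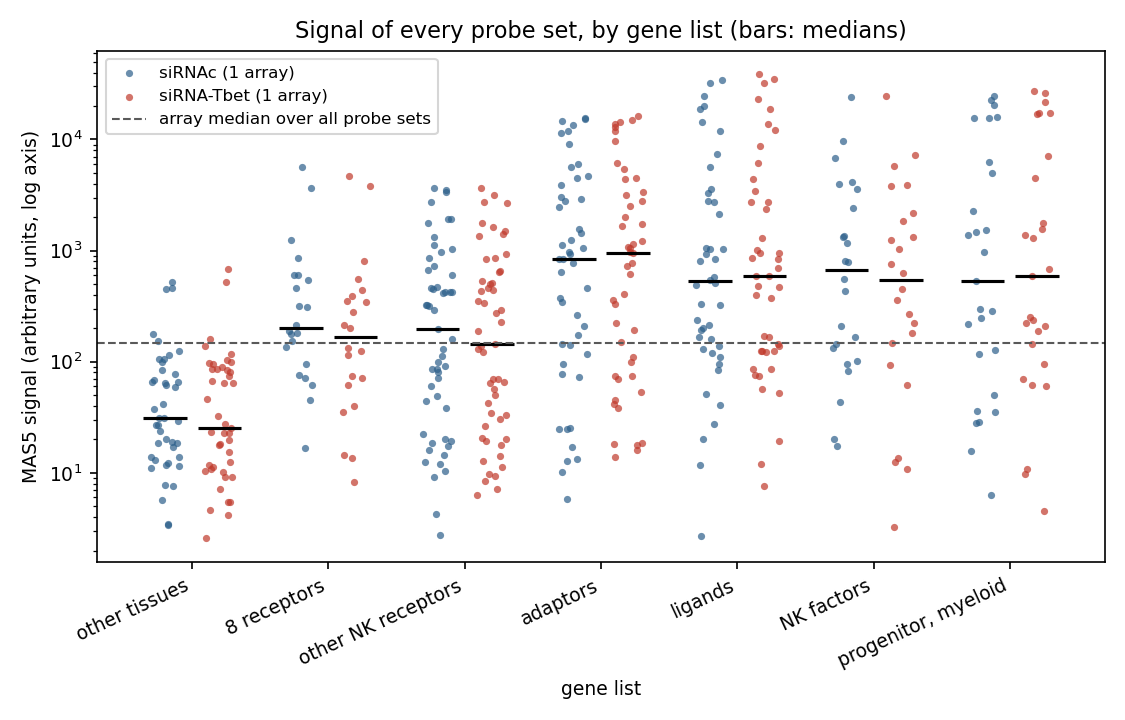
MAS5 signal (arbitrary units, log axis) of every probe set in 7 gene lists on the siRNAc (blue) and siRNA-Tbet (red) arrays, with bars at the list medians and a dashed line at the siRNAc array median. The other-tissue list has medians of 31.3 and 25.2, and the receptor genes have medians of 199.97 and 166.9.

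The C-type lectin-like receptors differed from each other. KLRB1, which binds the lectin CLEC2D, had signals of 3821 (siRNA-Tbet) and 3688 (siRNAc). These signals were higher than those of 90.7% and 90.3% of the non-control probe sets of their arrays, respectively. The log2 ratio was 0.05, a 3.61% higher signal, and lay at percentile 73.4 among measured genes of like signal (the same decile of mean signal). KLRB1 is read by 1 probe set.

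KLRD1 pairs with NKG2 proteins to form receptors for HLA-E. Its 3 probe sets had signals of 35.3, 61.3 and 134.2 with siRNA-Tbet and of 212, 182 and 176 with siRNAc, in the same order. Every probe set was above the median with siRNAc and under it with siRNA-Tbet. Without a floor the log2 ratios were -2.59, -1.57 and -0.39, but the siRNA-Tbet signals are in the range of background. The probe set that stands for the gene had a floored difference of 1.47-fold (log2 ratio -0.56). Its siRNAc signal is within the range of the other-tissue list, so this is no bound. The other pair of probe sets carries the suffix _x_at, which marks probes that can cross-hybridise, and had floored log2 ratios of -0.34 and -0.29. Both have a higher mean signal than the one that stands for the gene, which was kept because it lacks that suffix. The kept probe set also had the largest fall of the 3. KLRC3 and KLRC4, which encode members of the NKG2 family, lay under the median on both arrays.

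Both SLAM family receptors in the set had their brightest probe set lower with siRNA-Tbet. CD244, which binds CD48 on neighbouring cells, had signals of 4738 (siRNA-Tbet) and 5606 (siRNAc), above 92.5% and 93.6% of the probe sets of those arrays. That is 15.5% lower (log2 ratio -0.24, percentile 6.99 in its decile). The second probe set of CD244 read 199.6 and 154.2, a log2 ratio of 0.37 in the other direction and close to the array medians.

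SLAMF7, a receptor that binds its own kind and is found on NK and plasma cells, had 3 measured probe sets. The brightest read 813 with siRNA-Tbet and 1241 with siRNAc, 1.53-fold lower. The next read 441 and 599, 1.36-fold lower. The dimmest read 211.8 and 136.5 and was 1.55-fold higher before the floor was applied. The siRNAc signal of that last probe set was under the array median.

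The SLAM family genes form a cluster in the genome, in which SLAMF1, CD48, SLAMF7, LY9 and CD244 are near neighbours in the RefSeq gene order. Their values were looked up after those of the receptor genes were known. SLAMF1 had a log2 ratio of -0.24 at its brightest probe set (1639 against 1933) and of -0.15 and -0.45 at the others. CD84 had -0.20 at its brightest probe set (3158 against 3635), -0.11 and -0.23 at the next and -0.07 at a dim one. Other measured dim ones of CD84 had 0.35 (537 against 422) and 0.27 (512 against 426). SLAMF6 had -0.19 (857 against 979). CD48, the ligand of CD244, was nearly level at 13829 with siRNA-Tbet and 14474 with siRNAc (-0.07). All 3 probe sets of LY9 lay under the median on both arrays. The differences at the brightest probe sets of SLAMF1, CD84 and CD244 were about as large as the technical spread of 0.18 to 0.22 at those signals.

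That spread was taken from the arrays themselves, from how far the log2 ratios of a gene's 2 brightest measured probe sets lay apart (the SD of that gap over genes, divided by √2). It is not a pure measure of technical noise. Error shared by both probe sets of a gene cancels in the gap, while cross-hybridisation or reading different transcripts can widen it. Floored ratios were used, which can narrow the gap at dim signals. The spread also leaves out variation between cultures. It was 0.40 in the dimmest of 10 signal bins and 0.17 in the brightest. Of the 8 receptor genes, 6 were lower by more than the spread at their signal, as were 13.8% of the measured genes. CRTAM and SLAMF7 were lower by more than 2 spreads, as were 2.17% of the measured genes. CRTAM and KLRD1 are among the 6 and passed the filter only through the siRNAc array, where they are brighter. The others among the 6 were SLAMF7, HAVCR2, NCAM1 and CD244. The shares of 13.8% and 2.17% are over all measured genes. The matching share of genes above the median on both arrays was not counted, so no share stands beside these genes alone. CD226, at -0.38 against a spread of 0.40, was not past it.

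CD226 is an activating receptor for PVR and NECTIN2. Its probe set read 355 with siRNA-Tbet and 463 with siRNAc, 1.31-fold lower, at percentile 14.5 in its decile. CRTAM, which binds CADM1, read 115 with siRNA-Tbet and 309 with siRNAc. The siRNA-Tbet value was under the array median and the siRNAc value above 61.5% of the probe sets, which gives a floored difference of 2.14-fold. Its floored log2 ratio of -1.10 lay at percentile 0.740 in its decile. Both signals lie in the range of the other-tissue list, where a cross-hybridising probe set of SFTPB (64.3 against 446) had a floored difference of 3.10-fold in the same direction. By this gauge the signals of CRTAM cannot be told apart from background. With the floor at the 75th percentile neither signal of CRTAM passed it, and no gene of the set was 2-fold lower. CD226 and CRTAM each rest on 1 probe set. In the same adhesion family, CD96, a competitor of CD226 for PVR, was nearly level (3648 against 3513, log2 ratio 0.05), and the probe set of TIGIT was under the median on both arrays.

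HAVCR2 was read by 4 probe sets. The brightest had signals of 389 with siRNA-Tbet and 601 with siRNAc, 1.54-fold lower and at percentile 4.93 in its decile. The others read 278 against 320, 125.2 against 187.8 and 8.21 against 16.6. All 4 were lower with siRNA-Tbet, and only the brightest pair was above the median on both arrays. The second-brightest had a log2 ratio of -0.20, smaller than the technical spread of 0.40 at its signal.

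NCAM1 was read by 7 probe sets, more than any other gene of the set, and all 7 were lower with siRNA-Tbet. The brightest read 550 with siRNA-Tbet and 862 with siRNAc, 1.57-fold lower and at percentile 2.30 in its decile. The next read 341 and 548, 1.61-fold lower. These were the only probe sets of NCAM1 above the median on either array. The other 5 ran from 13.7 to 74.5 with siRNA-Tbet and from 45.7 to 96.1 with siRNAc, with log2 ratios from -2.38 to -0.04. FGFR1, a binding partner of NCAM1, was nearly level at 3411 and 3308 (log2 ratio 0.04).

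**Figure D3:**
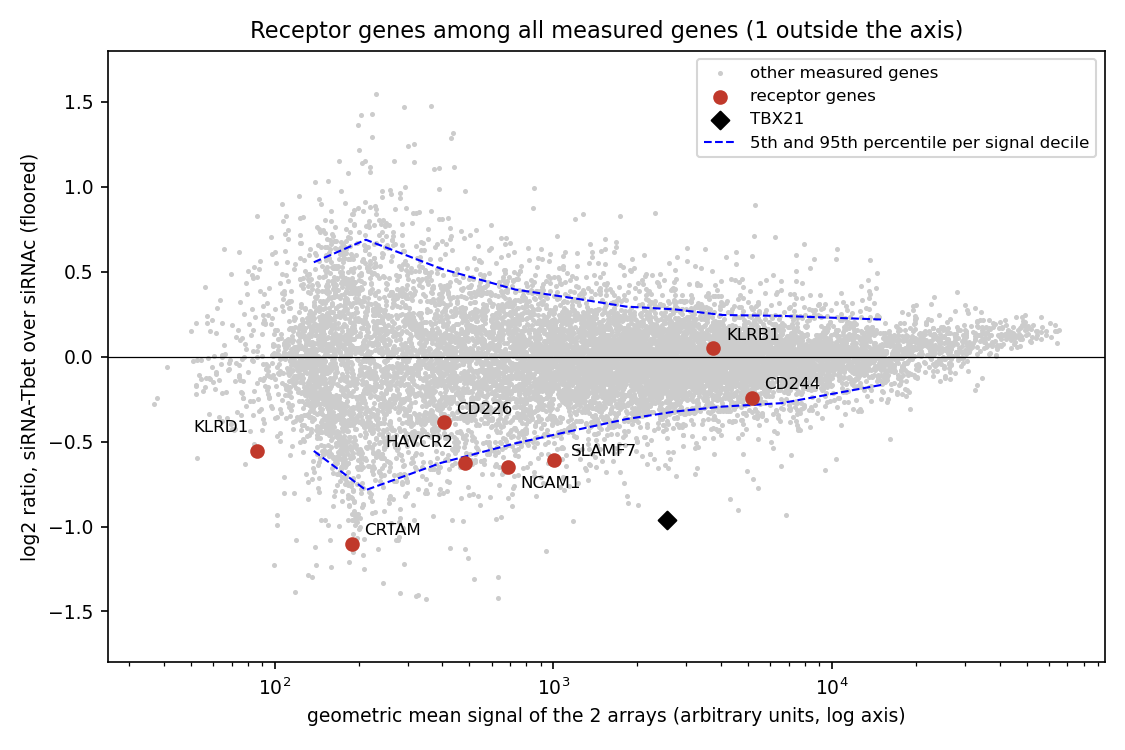
Log2 ratio of siRNA-Tbet over siRNAc (signals under the array median raised to it) against the geometric mean signal of both arrays (arbitrary units, log axis) for the 12164 measured genes, with the 8 receptor genes in red, TBX21 as a black diamond and dashed lines at the 5th and 95th percentile of each signal decile. KLRD1, CRTAM, HAVCR2, NCAM1 and SLAMF7 lie under or at the lower dashed line, CD226 and CD244 above it, and KLRB1 near 0; 1 gene lies outside the axis.

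Among genes of like signal, KLRD1, CRTAM, SLAMF7, HAVCR2 and NCAM1 were at or under percentile 5 of their decile, 5 of 8 genes, against 4.93% of all measured genes. Of the 6 receptor genes above the median on both arrays, 3 were (SLAMF7, HAVCR2 and NCAM1), against 4.62% of such genes. The targeted gene TBX21 had signals of 1839 against 3581 (log2 ratio -0.96, percentile 0.0822 in its decile), so a part of its transcript remained. IFNG, which encodes interferon-γ and is a known T-bet target, had a log2 ratio of -0.17 (31243 against 35136). That lay at percentile 4.85 in its decile and was about as large as the technical spread of 0.17 at its signal.

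Other receptors of NK and cytotoxic cells were read from a list of 32 genes, of which 26 had a probe set with 1 gene and 13 were measured. Of these 13, 10 were lower and 3 were higher with siRNA-Tbet, where 53.7% of all measured genes were lower. The median log2 ratio of the 13 was -0.24. SLAMF8 and KIR2DL4, both lower, passed the filter through the siRNAc array alone, and the count was not repeated without them. Summed over the 13 genes, the signals came to 16310 (siRNA-Tbet) and 18525 (siRNAc), and over all measured genes to 4.58e+07 and 4.52e+07. CD2, an adhesion receptor of T and NK cells, was 1.96-fold lower (339 against 663). SLAMF8, a SLAM relative of myeloid cells, had a floored difference of 2.02-fold downward at its representative probe set (137.2 against 291.5) and was nearly level at the other (187.7 against 195.4). LILRB1, an inhibitory receptor for class I molecules, was 1.43-fold lower on a cross-hybridising probe set. KLRG1, an inhibitory receptor for cadherins, was 1.24-fold lower (2694 against 3345).

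Receptors known from NK cells were divided between signals above and under the array medians. All 3 probe sets of NCR3 (NKp30) were above the median on both arrays, at 351 against 469, 499 against 317 and 460 against 324, and disagreed in direction. A pair of NCR2 probe sets that can cross-hybridise was also above it, at 290 against 423 and 274 against 412. The probe sets of NCR1, CD160, LAG3, KLRC3 and KLRC4 were all under the median on both arrays, and those of the killer immunoglobulin-like receptor genes also were, apart from 1 probe set of KIR2DL4 (70.2 against 160.6) that can cross-hybridise. KLRF1, the receptor NKp80, had signals of 842 and 1026.

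The partners of the 8 receptors inside the cell were less alike in direction. Of 16 genes of adaptors, kinases and other partner proteins, 14 were measured, 7 lower and 7 higher, with a median log2 ratio of -0.02. SH2D1A and SH2D1B encode the adaptors through which SLAM receptors signal in lymphocytes. Their representative probe sets were under the median on both arrays, and 1 cross-hybridising probe set of SH2D1A read 18.2 with siRNA-Tbet and 211 with siRNAc. FYN, the kinase recruited by that adaptor, was 1.78-fold lower at low signals (192.0 against 342.6), and its other probe sets were under the median. TYROBP and HCST, membrane adaptors of NK and myeloid cells, were nearly level (1149 against 1124 and 2779 against 2909). LCP2, PTPN11 and BAG6 were the brightest of the list, with log2 ratios of 0.07, -0.14 and 0.03. SYK was 1.22-fold lower and PLCG2 was 1.20-fold higher.

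The ligands were balanced as well, with 4 of 9 measured genes lower, 5 higher and a median log2 ratio of 0.01. HLA-E, the ligand of the KLRD1 receptors, was level at 12050 and 11981. HMGB1 and LGALS9, both described as ligands of HAVCR2, were 1.30-fold and 1.23-fold higher, and CEACAM1 was 1.26-fold lower at low signals (170 against 215). NECTIN2 had a log2 ratio of 0.14 and PVR of -0.13, and the 7 probe sets of PVR disagreed in direction. The brightest probe set of CADM1 was close to the median (145.3 against 166.3).

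**Figure D4:**
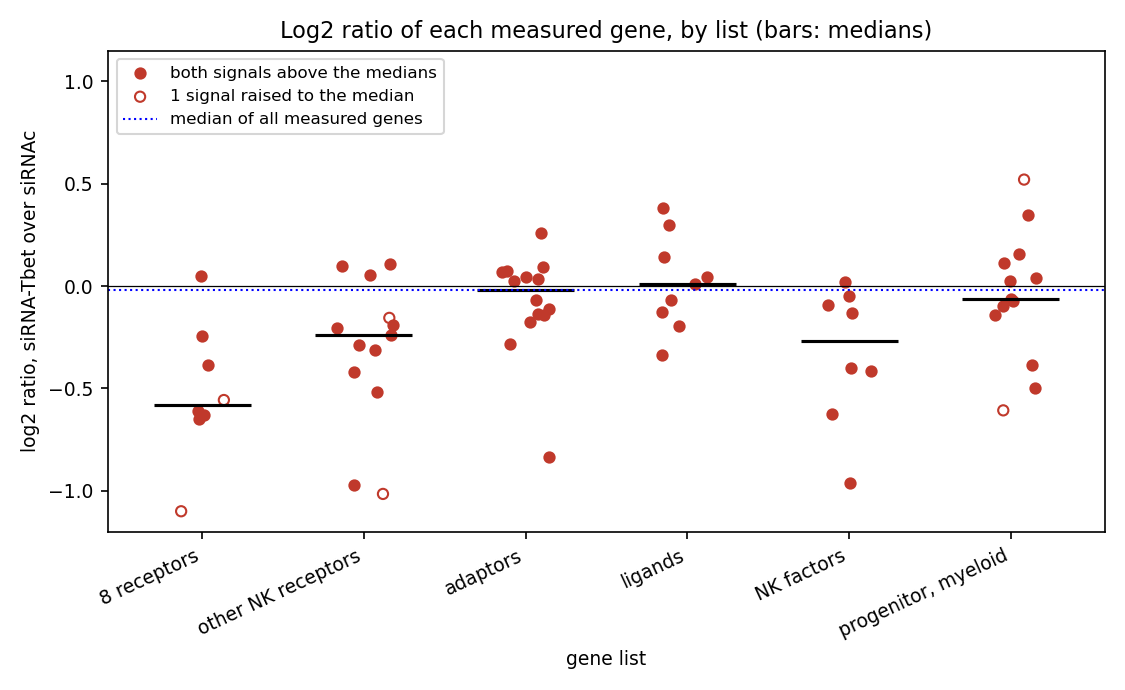
Log2 ratio (siRNA-Tbet over siRNAc) of each measured gene in 6 lists, with open circles where 1 signal was raised to the array median, bars at the list medians and a dotted line at the median of all measured genes. The medians are -0.58 for the 8 receptors, -0.24 for other NK receptors, -0.02 for adaptors and 0.01 for ligands. They are -0.27 for NK factors, which include the siRNA target TBX21, and -0.06 for progenitor and myeloid markers.

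Transcription factors of the NK lineage were lower in 7 of 8 measured genes, where 53.7% of all measured genes were lower. Their median log2 ratio was -0.27. Both the count and the median include TBX21, the siRNA target (-0.96), whose fall was intended by the design. The other measured factors ran from -0.62 (PRDM1) to 0.02 (TOX). RUNX3, a partner of T-bet in cytotoxic cells, was 1.33-fold lower (7215 against 9631). PRDM1 was 1.54-fold lower at the probe set of highest mean signal (357 against 551), and its others had log2 ratios of 0.08 and 0.43. TOX and ID2 were nearly level, at 0.02 and -0.09. The related T-box factor EOMES was under the median on both arrays (93.3 against 132).

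Several markers of a haematopoietic progenitor line had high signals on both arrays. CD34 read 17130 and 15839, MYB 26265 and 20627, PTPRC (CD45) 21790 and 22778 and HLA-DRA 27218 and 24432, with siRNA-Tbet first. CD14, a monocyte marker, and KIT, a progenitor marker, were under the median on both arrays. Of 13 measured progenitor and myeloid markers, 7 were lower and 6 were higher, with a median log2 ratio of -0.06. MPO had a floored difference of 1.43-fold upward (210 against 127), LYZ was 1.41-fold lower (684 against 965) and CSF1R had a floored difference of 1.52-fold downward (143.8 against 219.7). Their part in the receptor values was not tested. In bulk RNA, fewer cells with a transcript and less of it per cell cannot be told apart.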

How the data were processed

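Total RNA of 2 samples was hybridised to Affymetrix arrays, 1 per group. The deposited table holds 1 linear intensity for each probe set and array. The authors made it with MAS5, as the submitters' processing notes name it. Both arrays had a trimmed mean of 1000 (2% removed at each end), so no further scaling was applied. MAS5 subtracts mismatch signal, which makes low intensities noisy.

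Gene names came from the platform annotation and were updated through Entrez numbers to RefSeq (GRCh38.p14). Of 54675 probe sets, 41097 had 1 gene, 6 of them Affymetrix controls that were left out; 1801 had several and 11777 are unnamed here. A gene was represented by its probe set of highest mean log2 signal, avoiding the suffix _x_at where another existed. Low signals were raised to the array median, and log2 ratios were taken with pandas 2.3.3 in Python 3.11.15. Counts by fixed fold replaced tests. The procedure was tested on simulated data. Changes were planted only in brighter genes and were larger than any main log2 ratio of the receptor genes. That test therefore does not cover recovery at most of the receptor signals or at ratios of the size reported here. The members, lists and rules were chosen with earlier results of these data known. Named were all members, TBX21, IFNG and, per list, the 3 largest ratios and 3 highest signals; other genes were named for their role after their values were seen. Alternatives were other scalings, floors, probe sets and folds.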

Additional observations from a re-analysis of the deposited data

How the results depend on the processing

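The median log2 ratio of the receptor genes, -0.58 in the main setting, was below 0 under all 9 alternatives of scaling, floor and probe set. It was -0.24 with the floor at the 75th percentile (3 genes), -0.29 with second-brightest probe sets (5 genes), -0.38 with the median over probe sets and -0.50 over the 6 genes above the median on both arrays. KLRB1 stayed above 0 in all 9 that gave it a value, at 0.05 to 0.07. KLRD1, CRTAM, SLAMF7, HAVCR2, NCAM1 and CD226 stayed below 0 in every alternative that gave them a value. CD244 was 0.06 with the median over its probe sets and 0.37 with the second-brightest. HAVCR2 was -0.20 with the second-brightest. KLRD1 was -2.51 when the floor was lowered to the 25th percentile and -2.59 when it was removed.

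The floor set the counts of 2-fold differences. With it at the 25th percentile, 2 of 8 receptor genes (CRTAM and KLRD1) were 2-fold lower. Of all 17296 measured genes, 791 were 2-fold lower and 860 higher. With no floor or filter the counts were 2 of 8, and 1782 and 1874 of 19775 genes. With the floor at the 75th percentile, 3 receptor genes were measured, with a median log2 ratio of -0.24. The median log2 ratio of all 7557 measured genes was then -0.01. In that setting 0 receptor genes, 0 genes lower and 0 genes higher passed 2-fold. With second-brightest probe sets, which 5 receptor genes had, their median log2 ratio was -0.29 and 0 were 2-fold lower. Of all 6155 genes with such a probe set, 23 were 2-fold lower, and the median log2 ratio of the 6155 was 0.001. At 1.5-fold, 4 of 8 receptor genes and 360 of 12164 genes were lower and 238 genes higher. At 3-fold, the counts were 0, 0 and 1. A restriction to genes above the median on both arrays was added after seeing the data. There, 0 of 6 receptor genes were 2-fold lower, and of all 10982 genes 18 were lower and 14 higher. No paired analysis was possible because each group holds 1 array.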
